A study of Mus musculus with 4 samples.

Results

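The genes described here carry the secretory transport machinery of the mouse lung: the proteins that bring a new secretory protein into the endoplasmic reticulum (ER), fold it and move it in vesicles. They were chosen with earlier results of these data known, but by symbol and with no cut on a measured value. The rule took names of Sec, Srp, Pdia or Rab followed by a digit, and Ssr1 to Ssr4. It also took names that start with Spcs, Kdelr, Tmed, Copa, Copb, Copg, Cope or Copz. A gene also needed a probe with a value on all 4 arrays, which left 95 members with 130 probes, of 9153 genes with 12532 probes in all, and 65 members rested on 1 probe. The letters also admit 4 Sec14-like lipid transfer proteins and 9 binding partners and regulators of Rabs, which are given apart. A further 7 symbols, Kdelr1, Rab1b, Rab2b, Rab8a, Sec16b, Spcs1 and Ssr1, had no probe with a value on every array and were no members.

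Lungs came from BALB/cJ mice, an inbred strain. On each of 4 dual-colour arrays, lung RNA of mice sensitized and then challenged with ovalbumin, the egg white protein that serves as allergen in many mouse models, was set against a pool of RNA from 6 control animals that were not sensitized. Challenged mice and their controls breathed the same air, either particle-free or carrying UCP, which the labels leave unexplained, with 2 arrays for each air. The dyes were swapped within an air: challenged RNA carried Cy5 on the first array (array 1) and Cy3 on the other (array 2). Values are given as log2 of challenged lung relative to the pool, so that 1 is a doubling, and the test leaves out the spread among controls. Sensitization and challenge cannot be told apart in this design, and in whole lung more cells of a type and more RNA per cell cannot be told apart either. The overall sign is likely only: the convention of dividing Cy5 by Cy3 and 7 genes typical of the allergic lung (median 3.13, with 6 above 0 on all 4 arrays) are its basis. Whether an air's 2 arrays come from separate animals is not labelled, so the p-values reflect spread among arrays that may be purely technical. With ratios alone, the presence of lung markers could not be checked by their level, and the 8 measured of 12 epithelial and endothelial markers had a median ratio of 0.05.

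A secretory protein starts on a ribosome whose signal sequence is bound by the signal recognition particle and handed to the Sec61 channel in the ER membrane. Signal peptidase removes the signal, protein disulfide isomerases pair the cysteines, and COPII vesicles carry the cargo to the Golgi while COPI vesicles and the KDEL receptors bring escaped ER residents back. Rab GTPases then direct vesicles to their targets. In the lung this route serves mucins and surfactant proteins of the epithelium, antibodies of plasma cells, and the enzymes and chemokines of macrophages.

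3 promoter windows are shown because the ER stress response is a textbook regulator of this machinery. RefSeq promoters (GRCm38.p6), each 250 bases before to 50 after the annotated start, were found for 79 of the 95 members. The ER stress response element, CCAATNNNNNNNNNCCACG, searched on both strands, was in 1 of them, Pdia6, a disulfide isomerase (1.27% of the members matched, 0.189% of 7411 matched genes of the arrays and 0.137% of 27025 genes in all). TGACGTGG, the core of the unfolded protein response element, shares its end with the reverse complement of CCACG and was in 3 members, Kdelr3, Copb2 and Sec23a (3.8% of the members, 1.13% of matched genes of the arrays, 0.714% of all). A second form of the stress element, ATTGGNCCACG, was in 0 of the 79 (0.0945% of matched genes of the arrays, 0.0444% of all). Capitals mark the matches below, and the window of Sec61b holds neither these elements nor their parts CCAAT and CCACG, which are in the windows of 44.3% and 59.5% of the matched members and of 41.1% and 35.5% of all genes.
Pdia6, chr12:17266339-17266638, plus strand: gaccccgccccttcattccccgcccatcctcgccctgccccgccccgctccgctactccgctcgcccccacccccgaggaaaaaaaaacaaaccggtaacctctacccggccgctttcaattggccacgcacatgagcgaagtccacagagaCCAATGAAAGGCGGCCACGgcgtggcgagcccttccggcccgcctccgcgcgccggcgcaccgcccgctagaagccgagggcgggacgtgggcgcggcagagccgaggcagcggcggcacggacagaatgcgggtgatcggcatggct
Kdelr3, chr15:79516158-79516457, plus strand: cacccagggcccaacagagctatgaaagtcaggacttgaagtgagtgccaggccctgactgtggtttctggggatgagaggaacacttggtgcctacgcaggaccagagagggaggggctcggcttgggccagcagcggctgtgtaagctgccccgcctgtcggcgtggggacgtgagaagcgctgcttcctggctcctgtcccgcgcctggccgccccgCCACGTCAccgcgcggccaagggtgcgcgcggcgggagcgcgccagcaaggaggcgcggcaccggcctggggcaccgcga
Sec61b, chr4:47474411-47474710, plus strand: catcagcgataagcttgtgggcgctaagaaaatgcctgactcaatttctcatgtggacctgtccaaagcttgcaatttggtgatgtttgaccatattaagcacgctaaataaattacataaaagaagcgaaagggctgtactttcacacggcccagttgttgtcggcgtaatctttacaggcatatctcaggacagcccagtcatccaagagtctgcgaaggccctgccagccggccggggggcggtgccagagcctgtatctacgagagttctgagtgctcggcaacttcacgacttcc
These are matches of letters and not shown binding sites. The averaged log2 ratios of the members that hold a match lay on both sides of 0: Pdia6 at 0.92, Kdelr3 at 0.48, Copb2 at -0.18 and Sec23a at -0.32.

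The first question was what challenge changed across both airs. Of the 16 members that bring proteins into the ER, grouped after their values were seen, 13 lay above 0, or 11 without array 1 of particle-free air, beside 48.3% of all genes. Sec61b, the beta subunit of the translocation channel, was highest of all members at 1.36 and Pdia6 lay at 0.92, while Sec14l3, a Sec14-like lipid-binding protein, was lowest at -1.17 and Tmed4, a cargo receptor of the p24 family, lay at -0.87. No member passed the test, at an adjusted p of 0.05 over all genes (limma, Benjamini-Hochberg), in the averaged effect, in either air or in the difference between airs. The smallest adjusted p among members was 0.0946, for Sec14l3 in the averaged effect. Of all genes, 0.0983% were called in the averaged effect, 0.0109% in particle-free air, 0.0219% in UCP air and 0% in the difference.

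At an unadjusted p of at most 0.05 in the averaged effect, 16 members were higher, 16.8% of the 95 beside 8.06% of all genes, and 5 were lower, 5.26% beside 7.56%. The higher count was 9 without array 1 of UCP air and 9 without array 2 of it, where the lower count was 2 and 3. Above 0 on all 4 arrays were 24 members, 25.3% beside 14.2% of all genes, and below 0 on all 4 were 10, 10.5% beside 14.1%. The latter count was 20 without array 1 of particle-free air, where only 3 arrays had to share a sign. Over the 95 members the median averaged ratio was 0.15 beside -0.01 for all genes, 63 members (66.3%, beside 48.3% of all genes) were above 0, and the median was 0.10 without array 1 of particle-free air. The median SD over the 4 arrays was 0.343 for members and 0.353 for all genes.

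Roles differed in their medians. Of all genes 48.3% were above 0, 14.2% were above 0 on all 4 arrays and 14.1% below 0 on all 4, the background for the counts of each role. The 43 members that are neither Rabs, Rab partners nor Sec14-like proteins had a median of 0.24, with 33 above 0, whereas the 39 Rab GTPases had a median of 0.02, with 20 above and 19 below 0. The 16 members of ER entry had a median of 0.40, with 13 above 0, and their medians on the 4 arrays were 0.32 and 0.23 in particle-free air against 0.43 and 0.40 in UCP air. Members are not replicates, and the difference between roles was not tested.

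**Figure D1:**
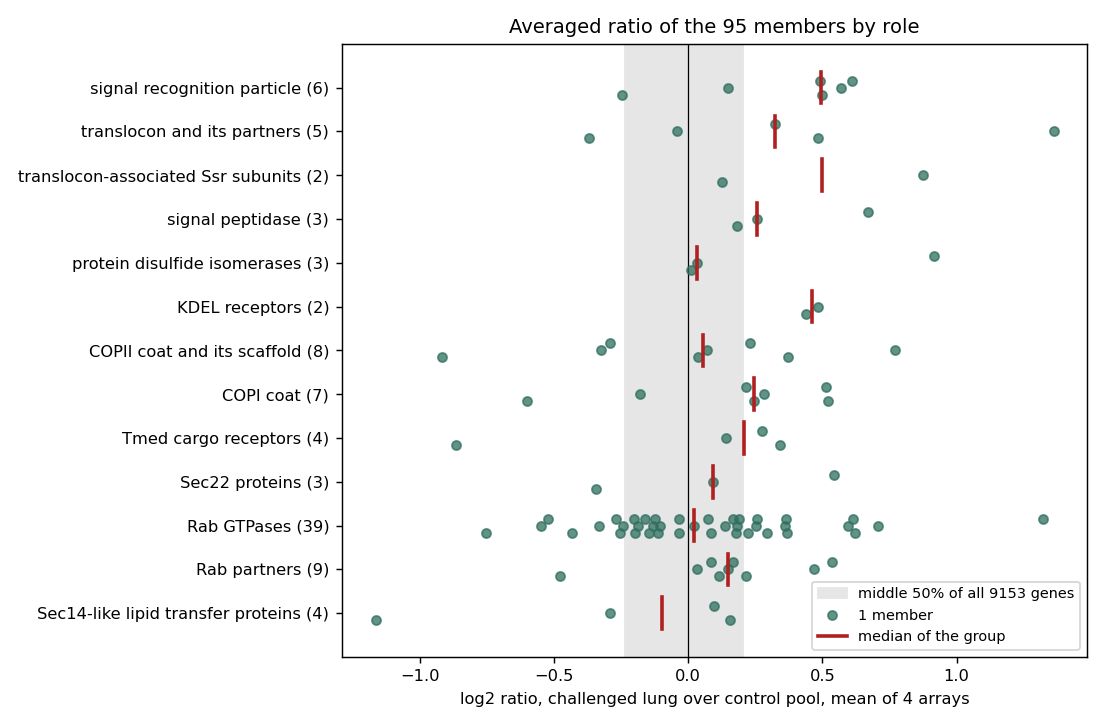
Averaged log2 ratio of challenged lung over control pool (horizontal axis, mean of 4 arrays) for each of the 95 members, as points in rows by role, with red bars for the group medians and a grey band for the middle 50% of all genes. The median of the signal recognition particle lies at 0.49 and that of the 39 Rab GTPases at 0.02.

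The signal recognition particle is the ribonucleoprotein that pauses translation and docks the ribosome at the ER. Of its 6 measured proteins 5 lay above 0 (83.3%, beside 48.3% of all genes) and 4 did so on all 4 arrays (66.7% beside 14.2%). Their median was 0.49. Srp19, which helps assemble the particle, stood at 0.49 and 0.74 in particle-free air and at 0.76 and 0.45 in UCP air, a mean of 0.61 ± 0.16 (SD, n = 4, limma adjusted p = 0.206). Srp9 and Srp14, which form the heterodimer of the domain that slows translation, had means of 0.57 ± 0.30 and 0.50 ± 0.19, and Srp54a, the subunit that binds the signal sequence, had 0.49 ± 0.16 (SD, n = 4 each). For these 4 proteins no array was below 0, and both airs overlapped. The larger subunits Srp68 and Srp72 lay at 0.15 and -0.25. The 3 Srp72 probes disagreed, with averaged ratios of -0.36, -0.70 and 0.32, so its value is uncertain.

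Sec61b was at least 1.5-fold higher on all 4 arrays, 1 of 2 members of which this held, 2.11% of the members beside 1.16% of all genes. Its ratios were 0.90 and 1.72 in particle-free air against 1.35 and 1.48 in UCP air. The airs overlapped and the lowest value was on array 1 of particle-free air. Both Sec61b values with challenged RNA in Cy3 were above both with it in Cy5. The averaged ratio of 1.36 ± 0.34 (SD, n = 4), a 2.57-fold difference, was above that of 99.2% of all genes but did not pass (limma adjusted p = 0.109). In each air the adjusted p was 0.34 and 0.298.

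The other subunits of the channel varied more between arrays than Sec61b. Sec61a1, which forms the pore, lay at 1.10 and 0.64 in particle-free air and at -0.06 and 0.25 in UCP air, so that both arrays of particle-free air were above both of UCP air. The difference of -0.77 between airs did not pass (limma adjusted p = 0.979). Sec61g, the small gamma subunit, ran from -0.54 to 1.21, and Sec62 and Sec63, which assist translocation after synthesis, averaged -0.04 and -0.37. Ssr4, the delta subunit of the translocon-associated complex, had 1.18 and 0.26 in particle-free air against 0.98 and 1.09 in UCP air. Its mean was 0.88 ± 0.42 (SD, n = 4, limma adjusted p = 0.198), and the value on array 2 of particle-free air was the mean of probes at 0.98 and -0.47. The first of these was even, with 1.29, 0.98, 1.13 and 1.10 on the 4 arrays, a mean of 1.13 (limma adjusted p = 0.061 with the probe of smallest spread for every gene, 0.128 when fitted by probe). Ssr2, the beta subunit of the same complex, averaged 0.12 and was at -0.52 on that same array.

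Signal peptidase had all 3 measured subunits above 0, although Sec11c lay at -0.094 without array 1 of UCP air. Sec11a, a catalytic subunit, lay at 0.37, 0.82, 0.47 and 1.03 on array 1 and 2 of particle-free air and 1 and 2 of UCP air. Its 2 values with challenged RNA in Cy3 were above its 2 values with it in Cy5, whichever the air. That order by dye also held for Sec61b, Srp9 and Rab14, among others. The mean of Sec11a was 0.67 ± 0.31 (SD, n = 4, limma adjusted p = 0.225). Spcs2, an accessory subunit, averaged 0.26 and the other catalytic subunit, Sec11c, 0.18.

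Of the 3 measured members named Pdia, Pdia6 was farthest from 0. It had the smallest SD of the 10 highest members, with 0.97 and 1.02 in particle-free air against 0.81 and 0.86 in UCP air. All 4 arrays were at least 1.5-fold higher, and the mean was 0.92 ± 0.10 (SD, n = 4, limma adjusted p = 0.109), a 1.89-fold difference. Pdia4, another ER isomerase, averaged 0.03 over 3 probes, of which 1 lay at -0.53. Pdia2, known from the pancreas, averaged 0.01. P4hb, a disulfide isomerase whose symbol the rule leaves out, averaged -0.37 and was below 0 on all 4 arrays. Txndc5 and Dnajc10, also isomerases outside the rule, averaged 0.77 and -0.04. Both KDEL receptors, which retrieve ER residents from the Golgi, averaged above 0: Kdelr2 had 0.35, 0.23, 0.56 and 0.61 on the arrays in the order used above, and Kdelr3, with a mean of 0.48, ran from -0.45 to 1.66 and averaged -0.044 without array 2 of particle-free air.

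**Figure D2:**
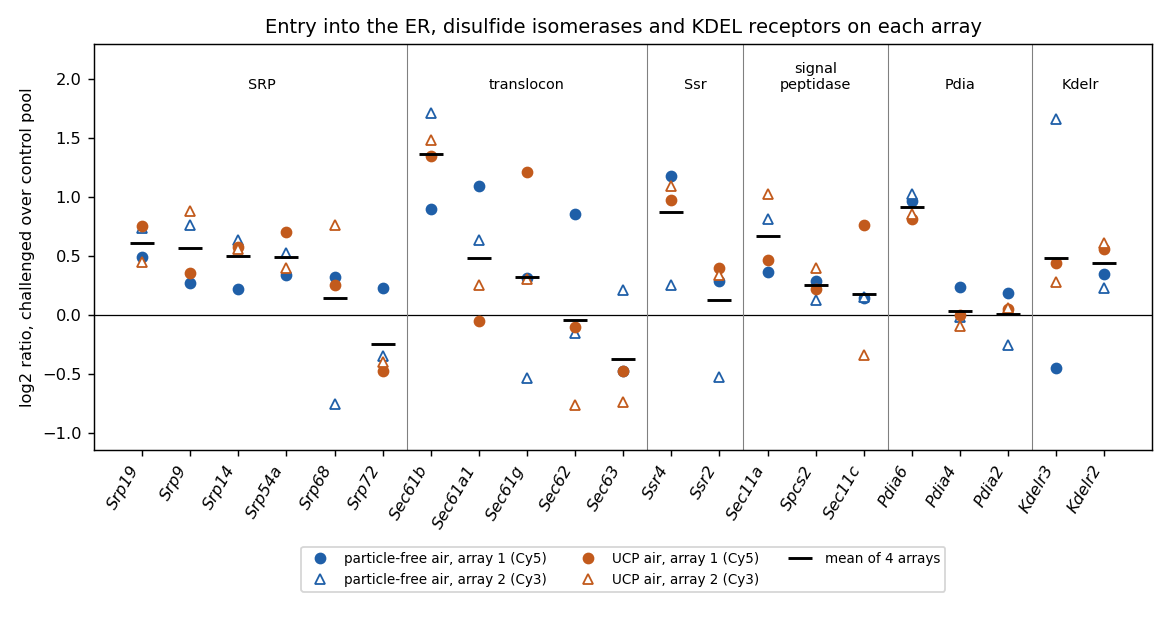
Log2 ratio of challenged lung over control pool (vertical axis) on each of the 4 arrays for the 16 members of ER entry, 3 disulfide isomerases and 2 KDEL receptors, in blocks by role. Circles are array 1 and triangles array 2 of an air, and bars are means. All 4 points of Sec61b, Pdia6 and Srp19 are above 0, while Sec63 averages -0.37.

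COPII, the coat that buds from the ER, gave no common direction. Of its 8 measured members 5 lay above and 3 below 0, and the median of 0.05 turned to -0.16 without array 1 of particle-free air. Sec23b, an inner-coat subunit, lay at -0.68 and -1.06 in particle-free air and at -1.82 and -0.11 in UCP air. It was below 0 on every array, with a mean of -0.92 ± 0.72 (SD, n = 4, limma adjusted p = 0.302). Its paralog Sec23a averaged -0.32, the outer-coat subunits Sec13 and Sec31a 0.04 and 0.23, the cargo adaptor Sec24c 0.07 and the exit-site scaffold Sec16a -0.29. Sec23ip, a Sec23-binding protein, averaged 0.77 through 1 array, with 2.90 on array 1 of particle-free air but -0.09 to 0.18 on the others. On that array its probes gave 6.18 and -0.39. For the adaptor Sec24b the probes disagreed too, with averages of -0.53 and 1.27.

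Sec22 proteins belong to traffic between ER and Golgi, and Sec22b is a membrane-fusion SNARE. Sec22a stood at 1.29 and 1.32 in particle-free air and at -0.72 and 0.28 in UCP air, without overlap. Sec22b and Sec22c averaged 0.09 and -0.34. The 2 Sec22b probes lay at -0.62 and 0.80.

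COPI, the coat of return traffic, had 7 measured members, 5 of which were above 0 on all 4 arrays (71.4%, beside 14.2% of all genes). Their median of 0.24 was 0.13 without array 1 of particle-free air. Copz1, a zeta subunit, had the highest mean, with 0.65 and 0.69 in particle-free air against 0.23 and 0.51 in UCP air (0.52 ± 0.21, SD, n = 4, limma adjusted p = 0.224). Copg2, a gamma subunit, also averaged 0.52, with 1.32 on array 2 of particle-free air but 0.23 to 0.28 on the others. With probes of at least 3 values also averaged, Copg2 lay at -0.14. Copa, Cope and Copg1 averaged 0.22, 0.24 and 0.28. Below 0 were Copz2, the second zeta isoform, at -0.60, whose lowest value was -1.94 on array 2 of particle-free air, as well as Copb2 at -0.18. Probes disagreed for Copg1 (-0.38 and 0.94) and for Copb2 (-0.96 and 0.61), so neither has a settled direction, nor has Copg2.

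Tmed proteins are p24 receptors that load cargo into both kinds of coat. Tmed9 and Tmed10 were above 0 on all 4 arrays, at 0.34 ± 0.08 and 0.27 ± 0.21 (SD, n = 4 each). Tmed4 went the other way, with -0.67 and -0.99 in particle-free air against -1.06 and -0.74 in UCP air. It was at least 1.5-fold lower on every array, as were 2.11% of the members and 1.02% of all genes, with a mean of -0.87 ± 0.19 (SD, n = 4, limma adjusted p = 0.138). Tmed3 was at -1.67 on array 1 of particle-free air but at 0.63 to 0.83 on the others.

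**Figure D3:**
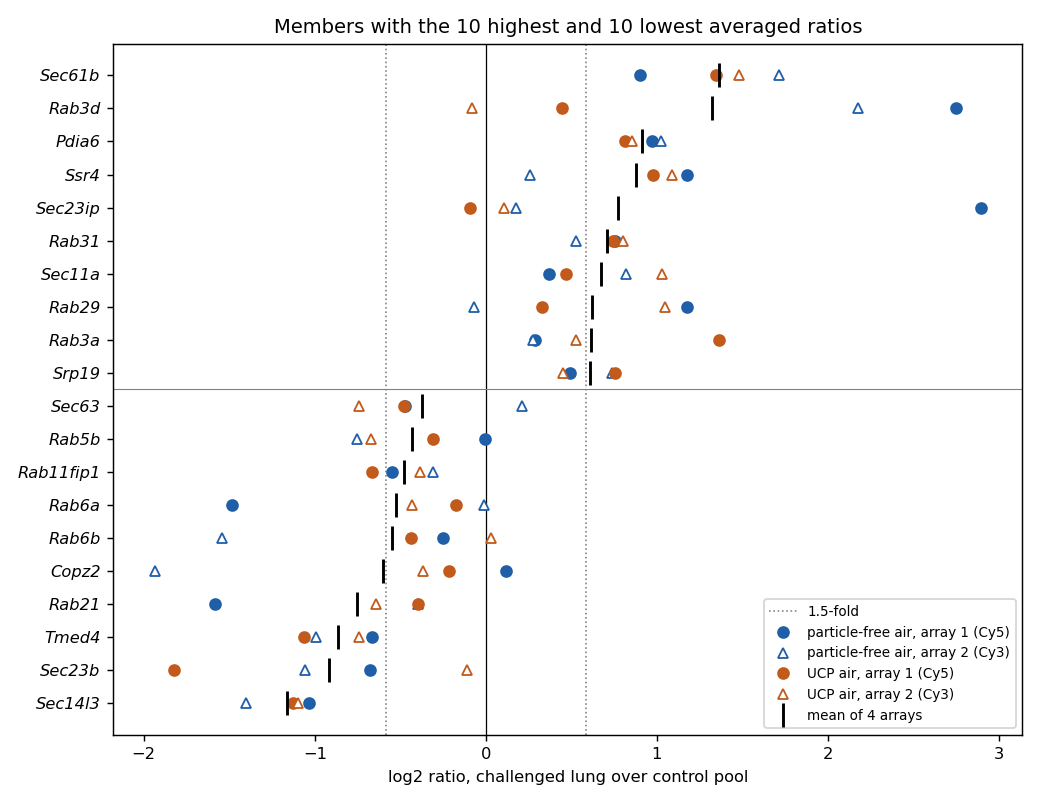
Log2 ratio of challenged lung over control pool (horizontal axis) on each array for the 10 members with the highest and the 10 with the lowest averaged ratios. Filled circles are array 1, open triangles array 2, bars the means and dotted lines 1.5-fold. Sec61b, Pdia6, Tmed4 and Sec14l3 have all 4 points past 1.5-fold, whereas Rab3d and Sec23ip spread widely. Sec61b, Pdia6, Tmed4, Sec14l3 and Rab3d each rest on 1 probe.

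Rab GTPases are small switches, each tied to certain membranes, and the 39 measured ones ran from -0.76 to 1.32. Above 0 on all 4 arrays were 6 (15.4%, beside 14.2% of all genes) and below 0 on all 4 were 5 (12.8% beside 14.1%). Among those of exocytosis, Rab3d, which sits on secretory granules and vesicles, had the highest mean at 1.32, and Rab3a, its relative on synaptic vesicles, lay at 0.29 and 0.27 in particle-free air and at 1.36 and 0.53 in UCP air. Rab3b, Rab3c, Rab26 and Rab37 lay between -0.20 and 0.02. Rab13, which serves delivery to epithelial junctions, was even across arrays at 0.63, 0.62, 0.71 and 0.42 (0.59 ± 0.12, SD, n = 4, limma adjusted p = 0.197). The epithelial Rab17 averaged 0.25 and Rab25 -0.13.

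On endosomes and the trans-Golgi network, Rab31 was the highest of the steady ones, with 0.76 and 0.53 in particle-free air against 0.75 and 0.80 in UCP air (0.71 ± 0.12, SD, n = 4, limma adjusted p = 0.149). Rab29 averaged 0.62 but ran from -0.07 to 1.17. Rab21, an early endosome Rab that handles integrins, was lowest at -0.76, with -1.58 on array 1 of particle-free air but -0.40 to -0.64 on the others. On array 1 of particle-free air its 3 probes gave -0.14, -3.6 and -1.03. Rab5b, of early endosomes, and Rab22a averaged -0.43 and -0.33 and were also below 0 on every array, although 1 of the 2 Rab5b probes averaged 0.04. Rab14, Rab35 and Rab11a, which act in recycling, were above 0 on every array at 0.36, 0.18 and 0.08, though neither Rab35 probe alone was. Of other Rabs with a part in recycling, Rab4a averaged -0.03 and Rab25 -0.13, the latter below 0 on every array. Rab4b, Rab5c, Rab7, Rab9, Rab15, Rab20 and Rab12 averaged between -0.11 and 0.36.

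Golgi Rabs lay on both sides of 0. Rab6a and Rab6b, which drive return from the Golgi, averaged -0.52 and -0.55. Each had 1 low array of particle-free air, at -1.48 and -1.54, with the others between -0.44 and 0.03. On those low arrays the 2 probes gave -0.587 and -2.38 for Rab6a and -0.385 and -2.70 for Rab6b. Rab2a and Rab18, of the early route, were at -0.04 and -0.11. Rab43 was at 0.37, with -1.06 on array 1 of particle-free air but 1.15, 0.52 and 0.86 on the others. On array 1 of particle-free air its 2 probes gave 0.69 and -2.80. The remaining Rabs, Rab10, Rab19, Rab23, Rab24, Rab28, Rab34, Rab36, Rab39b and Rab44, averaged between -0.27 and 0.26.

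Of the 9 Rab partners 8 averaged above 0, from 0.03 for Rab3ip to 0.54 for the Rab5-interacting factor Rab5if, and Rab3il1, a Rab exchange factor, was at 0.47. The exception was Rab11fip1, a recycling effector, at -0.48 ± 0.16 (SD, n = 4) and below 0 on every array, although 1 of its 2 probes averaged 0.02. Rab3gap1 averaged 0.21, and Rab11fip2, Rab11fip3, Rab11fip4 and Rab11fip5 between 0.08 and 0.17. Sec14l3 belongs to a family of lipid carriers outside the coats. It lay at -1.03 and -1.40 in particle-free air and at -1.13 and -1.10 in UCP air, at least 1.5-fold lower on every array, with a mean of -1.17 ± 0.16 (SD, n = 4, limma adjusted p = 0.0946), a 2.24-fold difference. Its relatives Sec14l1, Sec14l2 and Sec14l4 averaged 0.10, 0.16 and -0.29.

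The next question was what challenge did in each air. At least 1.5-fold higher on both arrays of particle-free air were 10 members, 10.5% beside 3.73% of all genes: Sec61b, Rab3d, Pdia6, Rab13, Sec22a, Rab5if, Copz1, Sec61a1, Sec24b and Rab5c. Lower by that much were Tmed4, Sec23b and Sec14l3, 3.16% of the members beside 3.58% of all genes. In UCP air 6 members were that much higher, 6.32% beside 2.93% of all genes (Sec61b, Pdia6, Ssr4, Rab31, Rab3il1 and Tmed3), and Tmed4 and Sec14l3 were that much lower, 2.11% beside 3.82%. By their means, 40 members were above 0 in both airs and 24 below 0 in both, 42.1% and 25.3%, beside 31.1% and 32.7% of all genes.

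The last comparison set UCP air against particle-free air. Rab3d differed most, with 2.75 and 2.18 in particle-free air against 0.45 and -0.08 in UCP air. Both arrays of particle-free air were far above both of UCP air. The difference of -2.28 (standard error 0.37) had an unadjusted p of 0.00249 and did not pass (limma adjusted p = 0.677), and 0.918% of all genes had a lower difference. Sec22a with -1.53 and Sec24b with -0.78 were the other members with an unadjusted p of at most 0.05, 3.16% of the members beside 3.94% of all genes. The medians of the 95 members were 0.07 in particle-free air against 0.10 in UCP air, the former 0.13 without its array 1 and 0.22 without its array 2, and 47 members were higher and 48 lower in UCP air.

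Other lists were at different levels in the airs. Liver-made plasma protein genes (16 of 18 listed were measured) had medians of 2.83 and 2.24 under particle-free air and of 0.51 and 0.25 under UCP air, with Alb, albumin, at 4.75 and 4.46 against -0.53 and 0.81. Their part in the Rab3d result was not tested. Heart and striated muscle genes (17 of 21 measured) lay at medians of -0.09 and -0.28 in particle-free air against -1.72 and -1.64 in UCP air. Nppa, the atrial peptide, was at -5.72 and -5.91 in UCP air. Of the 17, 3 were higher in UCP air, among them Ckm at -0.70 and 0.31 by air. Adipose genes (9 of 14 measured) lay at medians of -0.88 in particle-free air against -1.27 in UCP air. Gpd1 was lowest at -1.71 and -3.25 by air, while 3 of the 9 were higher in UCP air, such as Plin1 at -1.24 and -0.14. Thymus and T cell genes (7 of 17 measured) had medians of -0.25 and -0.26 against -1.29 and -1.27, with Prss16, a thymic protease, at -0.83 and -2.25 by air.

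**Figure D4:**
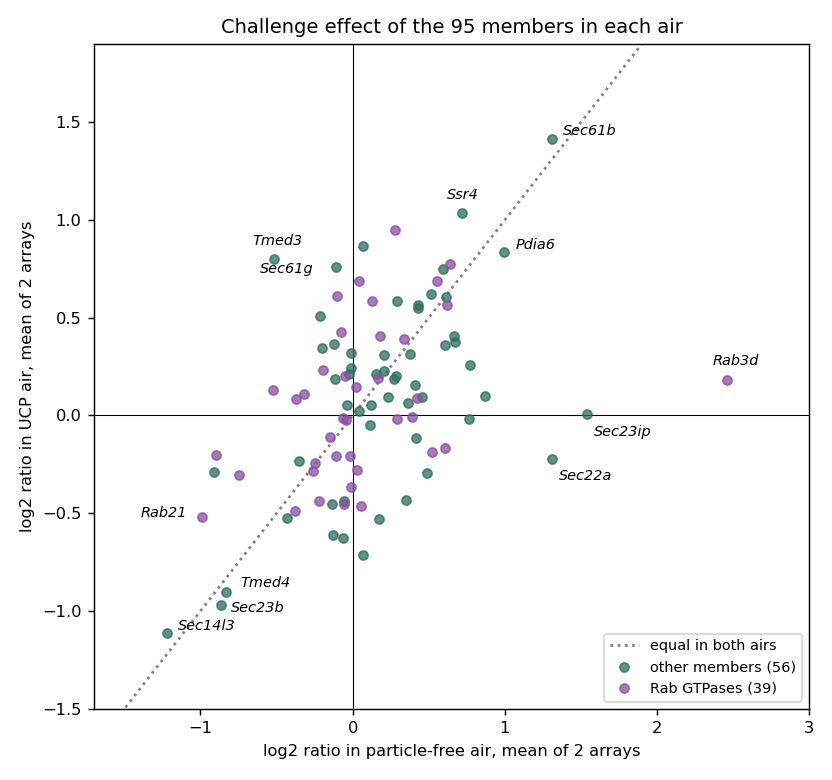
Mean log2 ratio of challenged lung over control pool in particle-free air (horizontal axis, 2 arrays) and in UCP air (vertical axis, 2 arrays) for each of the 95 members, with the 39 Rab GTPases in purple and a dotted line where both airs are equal. Sec61b and Pdia6 lie near the line, and Rab3d lies far to the right at 2.46 and 0.18.

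Other genes of the route, from lists written with earlier results of these data known, had 0 members past the test in the averaged effect. Of 48 listed ER folding and stress genes without Pdia in their symbol 35 were measured, with a median of 0.30. They are not chaperones and folding enzymes alone. Degradation factors such as Edem1 and Herpud1 and transcription factors such as Xbp1 and Atf4 are among them. Of the 35, 31 lay above 0 (88.6%, beside 48.3% of all genes), and 17 did so on all 4 arrays (48.6% beside 14.2%). Fkbp11, a prolyl isomerase, averaged 1.09 ± 0.41 (SD, n = 4), and Creld2, a stress-induced ER protein, had 0.90, 1.21, 1.05 and 1.03. The chaperone Erp29 had the highest mean in the list, 1.54, through 3.53 on array 2 of UCP air. At an unadjusted p of at most 0.05 there were 15 higher and 0 lower genes in that list, where 8.06% of all genes were higher and 7.56% lower, the background for the next 3 lists too.

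Glycosylation, membrane insertion and other ER entry genes (20 of 25 measured) had a median of 0.18. Srpr and Srprb, the receptor of the signal recognition particle, were near the middle at -0.03 and 0.18. Tram1 and Tram2, which act at the channel, lay at -0.24 and 0.06, the former below 0 on all 4 arrays. Rpn1, a subunit of the oligosaccharyltransferase beside the channel, was at 0.99, 1.08, 0.79 and 0.44, while Get3, which inserts tail-anchored proteins such as Sec61b, was at -0.69 ± 0.26 (SD, n = 4). Stt3b, a catalytic subunit, averaged 0.66 through 3.78 on array 2 of UCP air. At an unadjusted p of at most 0.05, 4 were higher and 1 lower. Coat GTPases, cargo receptors, tethers and SNAREs (54 of 84 measured) had a median of 0.09, with 5 higher and 2 lower at that p. Arf3, a Golgi GTPase, was the farthest from 0 at -1.08 ± 0.29, then Ykt6, a SNARE, at 0.66 ± 0.39 and Cog1, of a Golgi tether, at -0.57 ± 0.22 (SD, n = 4 each). Rab regulators (17 of 31 measured) had a median of 0.06 with 1 higher and 0 lower. Tbc1d10a, a Rab GTPase-activating protein, had 1.74 and 1.82 in particle-free air against 0.76 and -0.56 in UCP air. Rabgap1 and Rabgap1l averaged 0.83 and -0.69, each through array 2 of UCP air.

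Markers of secretory and immune cells were measured on the same arrays. B cell and plasma cell genes (7 of 19 measured) had medians from 0.31 to 0.58 over the arrays, with Pou2af1, a B cell coactivator, at 1.31 ± 0.48. Xbp1, which drives ER expansion in plasma cells, was at 0.81 ± 0.25 (SD, n = 4). With Fkbp11 and Derl3 it stands in the list of ER folding and stress genes as well. Sdc1, a plasma cell marker, and Blk, a B cell kinase, lay at -0.04 and -0.05. Goblet and airway secretory genes (8 of 22 measured) had a median of 0.41, with Slc26a4 at 4.24, Tff2 at 1.36 and Bpifa1, a club cell product, at -0.76. Slc26a4 and Tff2 served to set the sign, as did Itln1, which averaged 0.36 but was at -0.91 on array 1 of particle-free air. Macrophage and monocyte genes (18 of 27 measured) had a median of 0.95, with Ctsk, Ctss and Mrc1 at 2.61, 2.27 and 1.82. Below 0 were 3 of the 18, Marco at -0.36, Lyz2 at -0.34 and C1qb at -0.11. Alveolar type 2 genes (7 of 13 measured) had a median of -0.18, with Sftpb at -0.88, Etv5 at -0.26 and Lpcat1 at -0.23. The other way lay Ager at 0.18, Abca3 at 0.07 and Sftpc, a surfactant protein, at 0.06, the 3 of the 7 above 0. Ager is better known as a marker of alveolar type 1 cells, so the list and its median are not of type 2 genes alone. The part of these cell types in the ratios of the ER members was not tested.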

How the data were processed

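Lung RNA of 4 challenged samples was measured on 4 dual-colour arrays, each against a pool of 6 control animals; per the labels' protocols, 20 µg of total RNA was labelled indirectly with Cy3 or Cy5. Deposited by the authors were log2 ratios between both channels. Their normalization is not stated in the sources used here. On the Cy5 arrays the plateau of extreme values was positive and on the Cy3 arrays negative, each at a ratio of 100000 shifted by 1 log2 constant for each array (-0.05, 0.56, 0.55 and 0.28), so all 4 arrays were taken to run the same way. Array medians ran from -0.07 to 0.02, with 19349 to 19832 values an array. No brightness values were used here, so there was no filter on dim probes. The number of arrays limits the precision, as do disagreeing probes of a gene and the spread among controls, which was not measured.

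Symbols came from the platform annotation (13852 of 20205 probes with 1, 0 with several, 6353 with none). Probes with 4 values were averaged by gene, and limma 3.58.1 (R 4.3.3) was fitted to all 9153 genes with 1 coefficient for each air, leaving 2 residual and 2.37 prior degrees of freedom; tests were two-sided with Benjamini-Hochberg adjustment over all genes. The fit was tested on simulated data.

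Members and gene lists were chosen with earlier results of these data known. Individually named were Sec61b, members at least 1.5-fold from 1 the same way on all 4 arrays, and the 10 highest and 10 lowest. So were the 3 farthest from 0 in each role, the 5 with the largest difference between airs and those whose probes differed by more than 1. In each list of route genes or of secretory and immune cells at least the 3 farthest from 0 were named. In the liver, heart, adipose and thymus lists the farthest from 0 was named, and some genes that went the other way between airs were added. Other members are named with their values or ranges for completeness. Roles of Rabs within the family, and the joint count of ER entry, were grouped after the values were seen.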

Additional observations from a re-analysis of the deposited data

Results flagged for a closer look

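For 4 of the 95 members 1 array stood far from the other 3, by Dixon's criterion over the 4 arrays. For 4 values of 1 normal distribution the criterion flags about 1 in 20, but these 4 arrays mix 2 airs. The share over all genes was not counted, so the count is not read as a result about the members. Sec23ip was at 2.90 on array 1 of particle-free air, against at most 0.18 elsewhere. Tmed3 was at -1.67 on the same array, against 0.63 to 0.83 elsewhere. Copg2 was at 1.32 on array 2 of particle-free air, with the others between 0.23 and 0.28. Ssr2 was at -0.52 on that array, with the others between 0.28 and 0.40. All 4 lie on arrays of particle-free air.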

How the results depend on the processing

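No alternative gave a call among the members in any of the 4 comparisons, and the smallest adjusted p over them was 0.061 (limma, probe with the smallest spread). For the 47 individually named members, 535 of 558 alternative values kept their direction and their side of the threshold under an alternative and 23 changed sign. With the probe of smallest spread these were Copb2 (0.61), Copg1 (-0.38), Rab11fip1 (0.020), Rab5b (0.038), Sec22b (-0.62) and Sec24b (-0.53), which by single probe repeat, with Pdia4 at -0.53 and Srp72 at 0.32. With probes of at least 3 values Copg2 turned to -0.14. With an array left out, Pdia2 ran from -0.10 to 0.12, Pdia4 from -0.032 to 0.095, Sec22b from -0.080 to 0.26, Ssr2 from -0.078 to 0.33, Kdelr3 from -0.044 to 1.01, Tmed3 from -0.43 to 0.72 and Sec11c from -0.094 to 0.46.

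Of all genes, 9 were called in the averaged effect: 5 with arrays centred on their median, 0 with arrays centred and scaled (smallest adjusted p = 0.055), 57 with the probe of smallest spread, 42 without plateau values, 30 with robust moderation, 1 by probe and 3 to 19 with an array left out. The 1 called in particle-free air became 0 with centring and scaling, 4 with probes of at least 3 values and 0 to 4 with an array left out. The 2 in UCP air became 0, 16 without plateau values and 0 to 26, and the 0 in the difference 3 to 20 with an array left out. With the replicate block, which is the dye orientation as a term, 0 genes were called in the averaged effect and 0 in each air. In that fit 15 members were higher and 5 lower at an unadjusted p of at most 0.05. The members called stayed at 0. Their smallest adjusted p in the averaged effect was 0.192 with the block, beside 0.0946 in the main fit (limma). An array's number in its air is its dye orientation, and deviations of same-numbered arrays correlated by 0.06 over 9153 genes, so the numbers are not shown to pair the samples.

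The member median in UCP air was 0.18, and that of the difference 0.052, with the probe of smallest spread. With an array left out, the member median ran from 0.10 to 0.16 in the averaged effect, from 0.07 to 0.22 in particle-free air, from 0.10 to 0.13 in UCP air and from -0.080 to 0.0075 in the difference, members 1.5-fold higher from 2 to 4, members below 0 on all arrays from 11 to 20, and members at an unadjusted p of at most 0.05 from 9 to 20 higher and from 2 to 6 lower. Without Rab partners and Sec14-like proteins 1 member was 1.5-fold lower and 3 had such a p on the low side. Over all 95 members the count on the low side was 5, and 8 with the probe of smallest spread. Counts by sign and by unadjusted p were put to these alternatives after the data were seen. With an array left out, its air's remaining array is assumed to vary like the others.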

Other observations

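Symbols that fit the letters but lacked a value on an array still gave single values. Kdelr1, the third KDEL receptor, was at 0.25 and 0.58 in particle-free air and 2.00 on array 2 of UCP air, and Spcs1, a signal peptidase subunit, at 0.24 and 0.73 in particle-free air and 0.95 on array 1 of UCP air. Rab1b, of the step from ER to Golgi, was at -0.71 and -0.52 in UCP air, with -0.88 on array 1 of particle-free air. Rab8a had 0.30 and 0.66 in particle-free air and 2.01 on array 1 of UCP air, Sec16b had -1.66, -1.71 and 0.64 on 3 arrays, and Ssr1 had 0.52 and -1.62 on array 1 of each air. Rab2b had -0.49 on 1 array.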
